A study of Homo sapiens with 34 samples.

Results

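The 9 genes described here encode non-receptor tyrosine kinases that work next to the B-cell receptor and its precursor, the pre-B-cell receptor: *TXK*, *BTK* and *TEC* of the TEC family, *SYK* and its relative *ZAP70*, *LYN*, *BLK* and *FGR* of the SRC family, and *CSK*, the kinase that holds SRC-family kinases in check. They are 9 of the 17587 genes listed in at least 1 of the 6 comparison tables, and 8 of them are among the 13307 genes listed in all 6. *FGR* is the exception, since it is not listed for *CCND3* knockdown in BV-173. The genes were chosen by family, and the family itself was selected on the much higher level of *TXK* with palbociclib in these same data, so that difference is given as a description with no test.

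RNA was sequenced from 3 human B-cell acute lymphoblastic leukemia (B-ALL) lines, namely NALM-6 with the ETV6-PDGFRB fusion, RS4;11 with MLL-AF4 and BV-173 with BCR-ABL. In each line, cells that carried a lentiviral TagRFP vector with 1 shRNA construct against *CCND3*, the gene of cyclin D3, or with a scrambled shRNA were sorted on day 4 after transduction. Separate cultures received 1 µM palbociclib, an inhibitor of the cyclin-dependent kinases CDK4 and CDK6, or DMSO for 3 days. The 12 groups held 34 samples, with 3 in each group except for 2 in NALM-6 *CCND3* shRNA and 2 in BV-173 DMSO. The 2 treatments therefore differ in day, transduction and sorting as well as in target, and each line is a single established culture.

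The files give 1 level per group, a signal made by the authors for each pair of groups, so the spread between samples and the depth of each sample are unknown. Whether these levels are normalized means or values from the authors' fit is not given in the sources used here, which bears on every level and ratio below. Group totals lay between 17810468 and 20756235, and no gene was listed at 0. To compare groups and genes, a level was also expressed as a scaled level, in parts per 1000000 of its group total, and per kilobase of transcript where genes are set side by side. Ratios of low genes were narrow: the largest absolute log2 ratio among genes below a level of 1 was 0.45 to 1.49 in the 6 comparisons, against 2.21 to 6.12 for genes between 30 and 100. Fold changes of *FGR*, which was below a level of 1 in the 6 groups of the palbociclib experiment, may therefore be understated. The shRNA target *CCND3* was at 24.2%, 20.7% and 31.1% of its scrambled control in the 3 lines, as group levels. Of 10 B-lineage markers, 10 reached a level of 10 in every group, with a summed scaled level of 3199 to 5788, whereas 7 T-lineage markers summed to 0.267 to 0.995.

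When the pre-B-cell or B-cell receptor is engaged, SRC-family kinases such as LYN and BLK phosphorylate the tails of CD79A and CD79B. SYK docks there, becomes active and phosphorylates the adaptor BLNK, on which BTK meets its substrate PLCG2. TEC can stand in for part of the work of BTK, while TXK and ZAP70 are best known from T cells, where ZAP70 takes the place of SYK at the T-cell receptor. TXK differs from its relatives in that it lacks the lipid-binding PH domain at the start of the protein.

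*TXK* and *TEC* are neighbours in the same orientation. On the minus strand of chromosome 4 (GRCh38.p14), *TXK* spans chr4:48066393-48134250 and *TEC* spans chr4:48135783-48269838, with 1532 bases between them and no exon of another gene over either. The 250 bases before each RefSeq start are printed 5′ to 3′, with GGCGGG or its reverse complement CCCGCC, a core of SP-factor GC boxes, in capitals. These adjacent genes differed in the size of their response to treatment, a difference that includes the *TXK* rise used in the selection. Whether the sequences bear on that difference was not tested. The *TXK* stretch is chr4:48134251-48134500 and the *TEC* stretch is chr4:48269839-48270088.
TXK: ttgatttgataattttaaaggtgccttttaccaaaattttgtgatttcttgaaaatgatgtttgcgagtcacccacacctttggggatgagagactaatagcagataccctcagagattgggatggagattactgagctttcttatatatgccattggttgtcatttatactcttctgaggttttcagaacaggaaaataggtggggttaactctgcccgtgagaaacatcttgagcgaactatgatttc
TEC: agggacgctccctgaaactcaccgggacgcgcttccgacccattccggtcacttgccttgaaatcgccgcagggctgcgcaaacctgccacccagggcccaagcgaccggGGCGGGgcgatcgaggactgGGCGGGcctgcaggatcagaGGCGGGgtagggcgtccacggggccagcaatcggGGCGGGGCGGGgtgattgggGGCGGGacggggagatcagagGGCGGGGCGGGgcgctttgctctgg
The *TXK* stretch held none of these words and the *TEC* stretch held 8, overlapping ones included. At least 1 was found in 42.5% of 35116 promoter stretches of the same length. GC content was 38.4% before *TXK* and 71.6% before *TEC*, against a median of 58% over all stretches, and 10.1% of stretches had a lower GC content than that of *TXK*. GAGGAA, a longer word around the GGAA core of ETS sites, was in neither stretch on either strand and in 23.6% of all stretches. The shorter GGAA or its reverse complement is in both printed stretches, and its share of all stretches was not counted.

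With palbociclib, the *TXK* level went from 2.87 to 43.1 in NALM-6, from 4.82 to 65.1 in RS4;11 and from 11.6 to 37.0 in BV-173. As scaled levels, the 3 palbociclib values (1.84 to 3.27) lay above the 3 DMSO values (0.147 to 0.602), as did those of 6.15% of all genes. In bulk RNA, a change in the share of expressing cells and a change in RNA per cell cannot be told apart. These are ratios of 15.0-fold, 13.5-fold and 3.18-fold, or a mean log2 ratio of 3.11 ± 1.25 (SD over 3 lines). Among all genes of each table, *TXK* had the 12th, 11th and 164th highest ratio. The DMSO level was highest in BV-173, where the ratio was smallest. Adding 10 to every level lowered the mean to 1.84, with DMSO levels of 2.87 to 11.6.

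With *CCND3* shRNA, the *TXK* level went from 16.6 to 42.0 in NALM-6 and from 27.2 to 74.2 in RS4;11, but from 21.8 to 12.7 in BV-173. *TXK* was thus 2.53-fold and 2.73-fold higher in the first 2 lines and 1.71-fold lower in BV-173. The mean log2 ratio was 0.67 ± 1.26 (SD, 3 lines), with an adjusted p of 0.430 by limma over the 3 lines. With 1 line left out, 2 ratios remained, and the mean was 0.34 without NALM-6, 0.28 without RS4;11 and 1.39 without BV-173. The limma adjusted p was then 0.788, 0.866 and 0.0694. *TXK* did not pass the threshold for knockdown.

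The controls of the 2 experiments differed for *TXK*. The scaled level in scrambled shRNA was 6.17-fold that in DMSO for NALM-6, and the same ratio was 5.85 for RS4;11 and 1.87 for BV-173. The controls come from separate tables, so the comparison is a description, and transduction, sorting and day cannot be told apart as sources of it. The treated groups lay closer together than the controls in NALM-6 and RS4;11, and further apart in BV-173. In NALM-6 the scaled level was 2.33 with *CCND3* shRNA and 2.42 with palbociclib, and in RS4;11 it was 3.81 and 3.27. In BV-173 it was 0.612 and 1.84.

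**Figure D1:**
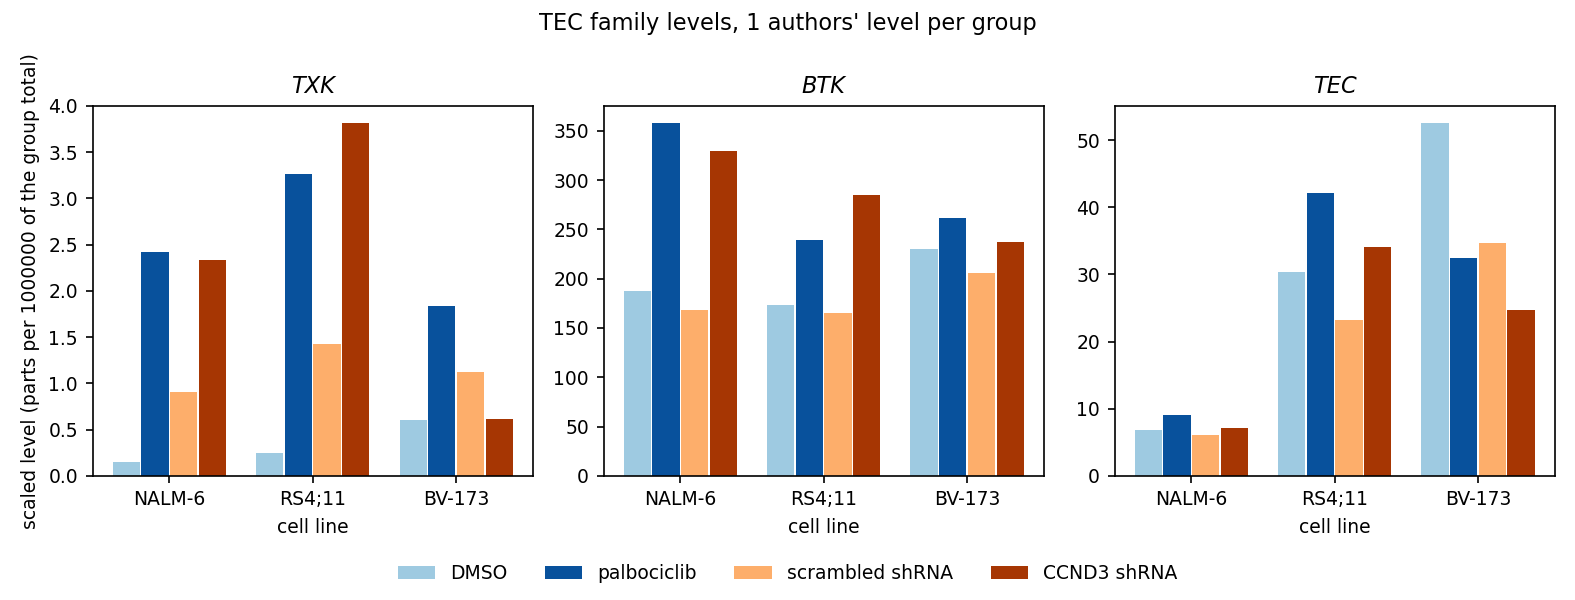
Scaled level (parts per 1000000 of the group total) for *TXK*, *BTK* and *TEC* (linear axes from 0, 1 scale per gene) in the 3 lines, with 1 bar for the authors' level of each group and therefore no error bars. *TXK* was at 0.147 to 0.602 with DMSO and 1.84 to 3.27 with palbociclib, *BTK* was above its control in all 6 comparisons, and *TEC* was below it in both BV-173 comparisons.

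*BTK*, the kinase lost in X-linked agammaglobulinemia and the target of ibrutinib, lies on the minus strand of chromosome X (chrX:101349450-101390796). Its level went from 3088 to 5945 with *CCND3* shRNA in NALM-6, from 3139 to 5542 in RS4;11 and from 3979 to 4932 in BV-173. With palbociclib it went from 3639 to 6372, from 3420 to 4777 and from 4440 to 5270. Treated levels were above the paired control in 6 of 6 comparisons. As scaled levels, the 3 *CCND3* shRNA values (238 to 330) lay above the 3 scrambled values (165 to 206), which held for 1.95% of all genes and for no other member. The 3 palbociclib values (239 to 358) lay above the 3 DMSO values (172.9 to 230.3), which held for 6.15% of all genes. The ratio was 1.93-fold, 1.77-fold and 1.24-fold for knockdown and 1.75-fold, 1.40-fold and 1.19-fold for palbociclib, so for either treatment NALM-6 had the highest value and BV-173 the lowest.

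Over the 3 lines, the mean log2 ratio of *BTK* was 0.69 ± 0.34 (SD) for knockdown with a limma adjusted p of 0.0992, and 0.51 ± 0.28 for palbociclib with an adjusted p of 0.135. Neither passed 0.05. With an intensity trend and robust shrinkage in limma, the knockdown value had an adjusted p of 0.0258 and passed. That setting called more genes for knockdown than the main fit did. Over all alternatives the limma adjusted p for knockdown ran from 0.0258 to 0.328. The within-line difference between knockdown and palbociclib was 0.18 ± 0.14 (SD) with an adjusted p of 0.497.

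*TEC* went the other way in BV-173. Its level there fell short of the control in both experiments, from 1013 to 653 with palbociclib and from 671 to 511 with *CCND3* shRNA. In RS4;11 it went from 600 to 842 and from 443 to 663, and in NALM-6, where it was lowest, from 134 to 162 and from 110 to 128. In the order NALM-6, RS4;11, BV-173, the log2 ratios for palbociclib were 0.28, 0.49 and -0.63, with a mean of 0.04 ± 0.60 (SD) and a limma adjusted p of 0.923. For knockdown they were 0.21, 0.58 and -0.39, with a mean of 0.14 ± 0.49 and an adjusted p of 0.743. In RS4;11 and NALM-6 *TEC* moved by far less than its neighbour *TXK*, and in BV-173 both were lower with *CCND3* shRNA. With *CCND3* shRNA the ratios of *TXK* and *TEC* had the same sign in each line, and how often other gene pairs do so was not tested. With palbociclib the signs differed in BV-173 alone. Nothing is read from the palbociclib signs, since the selection used the rise of *TXK*.

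Within a group and per kilobase of transcript, *BTK* was the most abundant of the TEC family everywhere. It exceeded *TEC* 37.7-fold to 64.5-fold in the 4 NALM-6 groups, 7.87-fold to 11.6-fold in RS4;11 and 6.08-fold to 13.4-fold in BV-173. It exceeded *TXK* by 81.8-fold at the least, in RS4;11, and 1416-fold at the most, in NALM-6 with DMSO. *TXK* thus stayed a minor transcript after treatment, at a scaled level per kilobase of at most 1.31 against 63.1 to 137 for *BTK*.

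Of the TEC-family genes outside the 9, *BMX* was listed for knockdown in RS4;11 alone, at 0.322 in both groups.

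*SYK* gave the plainest difference between lines. Its level was 3797 to 7665 in NALM-6, 3923 to 5043 in RS4;11 and 45.0 to 114 in BV-173. As scaled levels, the highest BV-173 value was 5.66 and the lowest value elsewhere was 195, a gap of 34.5-fold. The gene is on the plus strand of chromosome 9 (chr9:90801600-90898549).

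The *SYK* ratios to control were higher with palbociclib than with *CCND3* shRNA in each line. With palbociclib its level went from 3797 to 7665 in NALM-6, from 3923 to 5043 in RS4;11 and from 66.3 to 114 in BV-173, which is 2.02-fold, 1.29-fold and 1.72-fold higher. With *CCND3* shRNA it went from 5547 to 4330, from 3967 to 4214 and from 52.5 to 45.0, which is 78.0%, 106% and 85.7% of control. The palbociclib mean was 0.72 ± 0.33 (SD) on the log2 scale, higher in 3 of 3 lines, with a limma adjusted p of 0.0855. The knockdown mean was -0.16 ± 0.23 with an adjusted p of 0.538. Knockdown less palbociclib was -0.88 ± 0.56, below 0 in 3 of 3 lines, with an adjusted p of 0.174. None of these passed. The palbociclib value passed in limma with trend and robust shrinkage, at an adjusted p of 0.0297, and that of the difference then was 0.0615. That setting called more genes for palbociclib than the main fit did.

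In NALM-6 the *SYK* controls also stood apart, with scaled levels of 303 in scrambled shRNA and 195 in DMSO, a ratio of 1.55. The same ratio was 1.05 and 0.789 in the other lines.

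*ZAP70*, at chr2:97713576-97756364 on the plus strand, is the relative of *SYK* used by T and NK cells and is also known from some B-cell leukemias. It was listed at 593 to 913 in NALM-6, 2190 to 3070 in RS4;11 and 963 to 1171 in BV-173. The log2 ratios lay between -0.06 (NALM-6, and 0.06 there on scaled levels) and 0.29 for palbociclib and between -0.09 and 0.25 for knockdown, with means of 0.14 and 0.10 and limma adjusted p of 0.587 and 0.707.

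By scaled level per kilobase, the balance of the pair depended on the line. *ZAP70* was at 0.170 to 0.484 of *SYK* in the 4 NALM-6 groups and at 1.16 to 1.61 times *SYK* in RS4;11. In BV-173 it was 21.4 to 53.8 times *SYK*, with the lowest ratio under palbociclib and the highest with *CCND3* shRNA. The 3 ranges did not overlap. By the same measure *ZAP70* was at 13.7 to 22.7 in NALM-6, 21.9 to 26.2 in BV-173 and 47.1 to 67.9 in RS4;11, whereas *SYK* was at 0.427 to 1.11 in BV-173 and at 38.1 or more in the other lines.

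Markers of other cells that use ZAP70 were measured in the same groups. Of the 7 T-lineage markers 3 to 6 were listed per group, and none reached a level of 10 except 1 in NALM-6 with palbociclib, which was *CD247* at 16.0. NK markers (3 or 4 of 5 listed) summed to a scaled level of 74.9 to 104 in RS4;11, 29.8 to 41.4 in BV-173 and 4.68 to 9.69 in NALM-6. *NKG7* made up most of the sum in RS4;11, with a scaled level of 68.7 to 96.2 there. NK marker sums and *ZAP70* were both highest in RS4;11, but single NK markers differed. *NKG7* and *PRF1* were highest in that line. *KLRD1* was not, at levels of 14.9 to 25.1 there, 22.4 to 32.4 in BV-173 and 17.8 to 37.5 in NALM-6. *GNLY* was at 0.156 to 0.186 in RS4;11 and 1.96 to 2.64 in BV-173, and *NCAM1* was listed for knockdown in NALM-6 alone. The part of other cells in the *ZAP70* level was not tested.

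**Figure D2:**
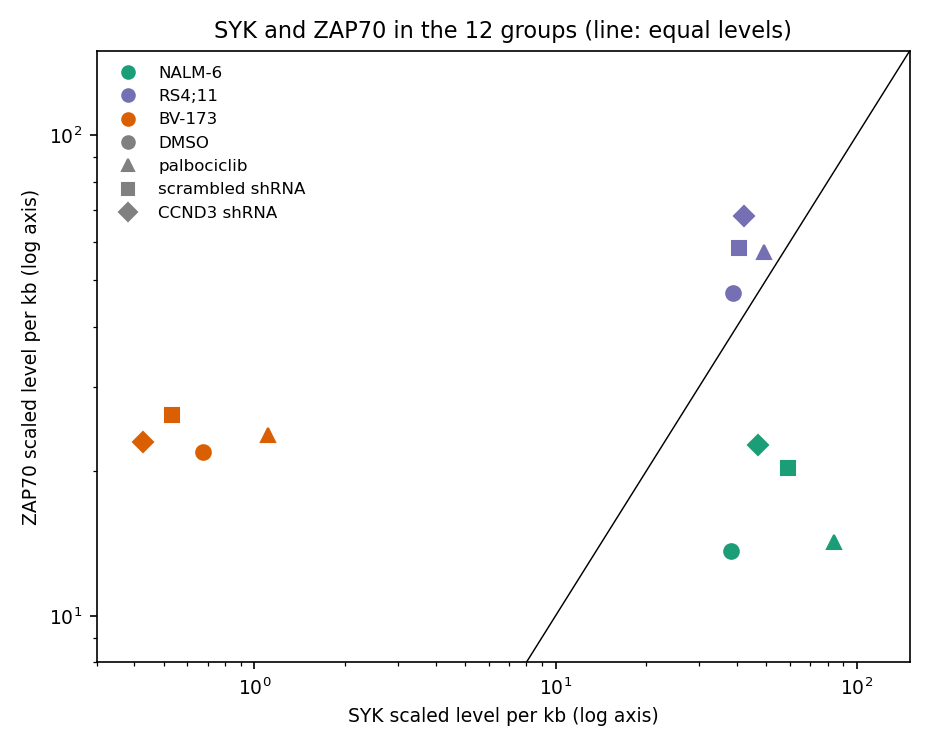
*SYK* (horizontal) against *ZAP70* (vertical), each as scaled level per kilobase on a log axis, with 1 point per group, colour for the line and shape for the treatment. NALM-6 points lie below the line of equal levels, RS4;11 points just above it, and the 4 BV-173 points far to its left at a *SYK* level of 0.427 to 1.11.

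*LYN*, usually the main SRC-family kinase of B cells, had log2 ratios between -0.12 and 0.24 in the 6 comparisons. Its level went from 2210 to 2284 with palbociclib in NALM-6, from 4829 to 4457 in RS4;11 and from 4946 to 5187 in BV-173. With *CCND3* shRNA it went from 2514 to 2391, from 4901 to 4990 and from 4658 to 5495. The mean log2 ratio was 0.00 ± 0.10 (SD) for palbociclib and 0.06 ± 0.16 for knockdown, with limma adjusted p of 0.999 and 0.813. The sign of so small a mean was not stable: the palbociclib mean was -0.015 after centring each comparison on its median.

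*BLK*, a SRC-family kinase largely restricted to B cells, had 262 to 431 in BV-173, 502 to 700 in NALM-6 and 593 to 994 in RS4;11. Its log2 ratios for palbociclib were 0.20, 0.51 and 0.03 in the order NALM-6, RS4;11, BV-173, and those for knockdown were -0.48, 0.37 and 0.13. The means were 0.25 ± 0.24 (SD) and 0.01 ± 0.44, with limma adjusted p of 0.367 and 0.987, and the knockdown mean was -0.029 on scaled levels. An unnamed gene on the opposite strand overlaps its exons, and whether strand was used in counting is not given in the sources used here. Per kilobase, *LYN* exceeded *BLK* 2.26-fold to 3.02-fold in NALM-6, 3.20-fold to 5.19-fold in RS4;11 and 7.48-fold to 12.3-fold in BV-173.

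*FGR*, a SRC-family kinase typical of myeloid cells, was low in the 10 groups that list it. It was listed at 0.197 to 0.502 in the 6 groups of the palbociclib experiment and at 1.00 and 1.01 in the NALM-6 shRNA groups. The exception was RS4;11, with 2.27 in scrambled shRNA and 5.31 with *CCND3* shRNA, a 2.34-fold ratio whose log2 value was 1.23, and 0.32 with 10 added to the levels. In the same 2 groups the 7 myeloid markers summed to scaled levels of 56.3 and 69.2, against a range of 14.5 to 103 over all groups, and their part in the *FGR* value was not tested.

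The other SRC-family genes gave no call in 6 of 6 tested, with a median log2 ratio of -0.24 for palbociclib and -0.03 for knockdown. *SRC* went from 417 to 183 with palbociclib in NALM-6 and from 35.9 to 21.2 in BV-173, but from 76.3 to 81.0 in the MLL-AF4 line. *FYN* went from 457 to 186 in BV-173, from 789 to 605 in NALM-6 and from 1288 to 1425 in the MLL-AF4 line. *LCK*, the T-cell member, was highest in RS4;11 (1138 to 1580) and moved in opposite directions with palbociclib in NALM-6, from 180 to 85.8, and in BV-173, from 136 to 306. *YES1* was low in RS4;11, at 7.91 to 15.1, against 344 to 481 in the other lines. *FRK* stayed at 0.162 to 4.87.

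*CSK*, which phosphorylates the inhibitory tail tyrosine of SRC-family kinases, was the most abundant of the 9 per kilobase in the 4 RS4;11 groups and in NALM-6 scrambled shRNA, and *BTK* was so in the other 7 groups. With palbociclib the *CSK* level went from 3380 to 5327 in NALM-6, from 4979 to 5043 in RS4;11 and from 2147 to 2607 in BV-173. With *CCND3* shRNA it went from 4222 to 4983, from 5663 to 6688 and from 1940 to 1431. The mean log2 ratio was 0.32 ± 0.32 (SD) for palbociclib and 0.01 ± 0.39 for knockdown, with limma adjusted p of 0.304 and 0.974, and the knockdown mean was -0.023 on scaled levels. *LYN* was at 0.275 to 0.419 of *CSK* per kilobase in NALM-6 and 0.457 to 0.621 in RS4;11, but at 1.28 to 2.38 times *CSK* in BV-173, where *CSK* was lowest.

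*MATK*, the close relative of *CSK*, was highest in BV-173. It was listed at 1537 to 2814 in the 4 BV-173 groups and at 0.152 to 0.333 in the 6 groups of the other lines that list it. In BV-173 it was 1.83-fold higher with palbociclib and 1.55-fold higher with *CCND3* shRNA. Since *MATK* is not in all 6 tables, no test over lines was run.

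**Figure D3:**
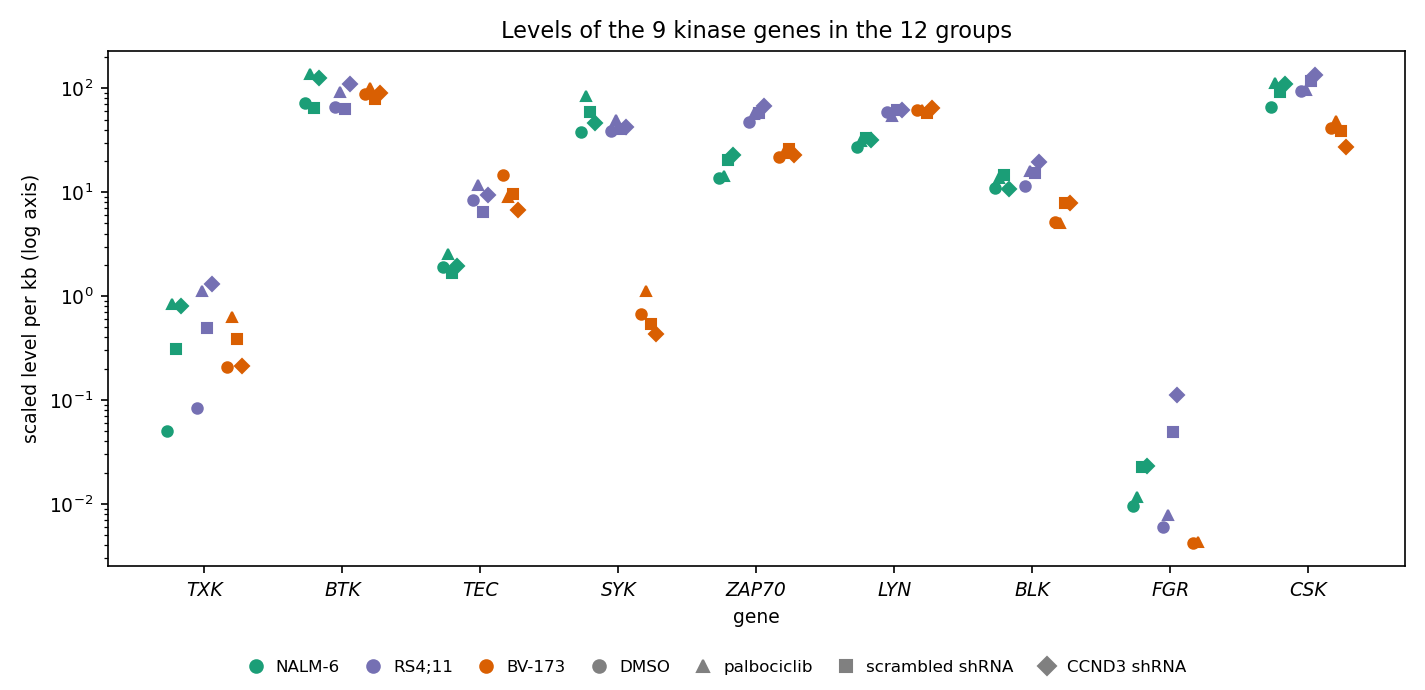
Scaled level per kilobase (log axis) of the 9 genes in the 12 groups, with colour for the line and shape for the treatment, 1 point per group. The levels span from 0.00419 for *FGR* to 137 for *BTK*, *TXK* is in the 8th place in all 12 groups, and *SYK* in BV-173 lies apart from *SYK* in the other lines.

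Across the 8 genes listed in all tables, group levels of a line lay wholly outside those of the other lines in 6 cases. In BV-173, *SYK*, *BLK* and *CSK* lay below the 8 groups of the other lines (3 of 8 genes, where 15.2% of all genes did so), with gaps of 34.5-fold, 1.34-fold and 1.34-fold. In NALM-6, *TEC* and *LYN* lay below (2 of 8, background 8.61%), with gaps of 2.55-fold and 1.63-fold. In RS4;11, *ZAP70* lay above (1 of 8, background 11.8%), with a gap of 1.83-fold. No member lay above in NALM-6 (background 14.9%) or BV-173 (6.51%), or below in RS4;11 (7.54%).

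Ratios of 1.5-fold or more in a single line have no test and are read beside their share among all genes. In NALM-6, *TXK*, *SYK*, *BTK* and *CSK* were that much higher with palbociclib (4 of 9, where 21.4% of all genes were) and none was lower (14.9%). In RS4;11 *TXK* was higher (1 of 9, background 16.7%) and none lower (15.0%). In BV-173 *TXK* and *SYK* were higher (2 of 9, 13.6%) and *TEC* lower (1 of 9, 11.9%). Nothing is read from the *TXK* part of these counts, since the rule used it.

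With *CCND3* shRNA, *TXK* and *BTK* were at least 1.5-fold higher in NALM-6 (2 of 9, background 7.82%) and none was lower (8.47%). In RS4;11 *TXK*, *BTK* and *FGR* were higher (3 of 9, 9.73%) and none lower (9.72%), with *TEC* at 1.498-fold just below the limit. In BV-173 none of the 8 listed was higher (3.32%) and *TXK* was lower (1 of 8, 4.78%).

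**Figure D4:**
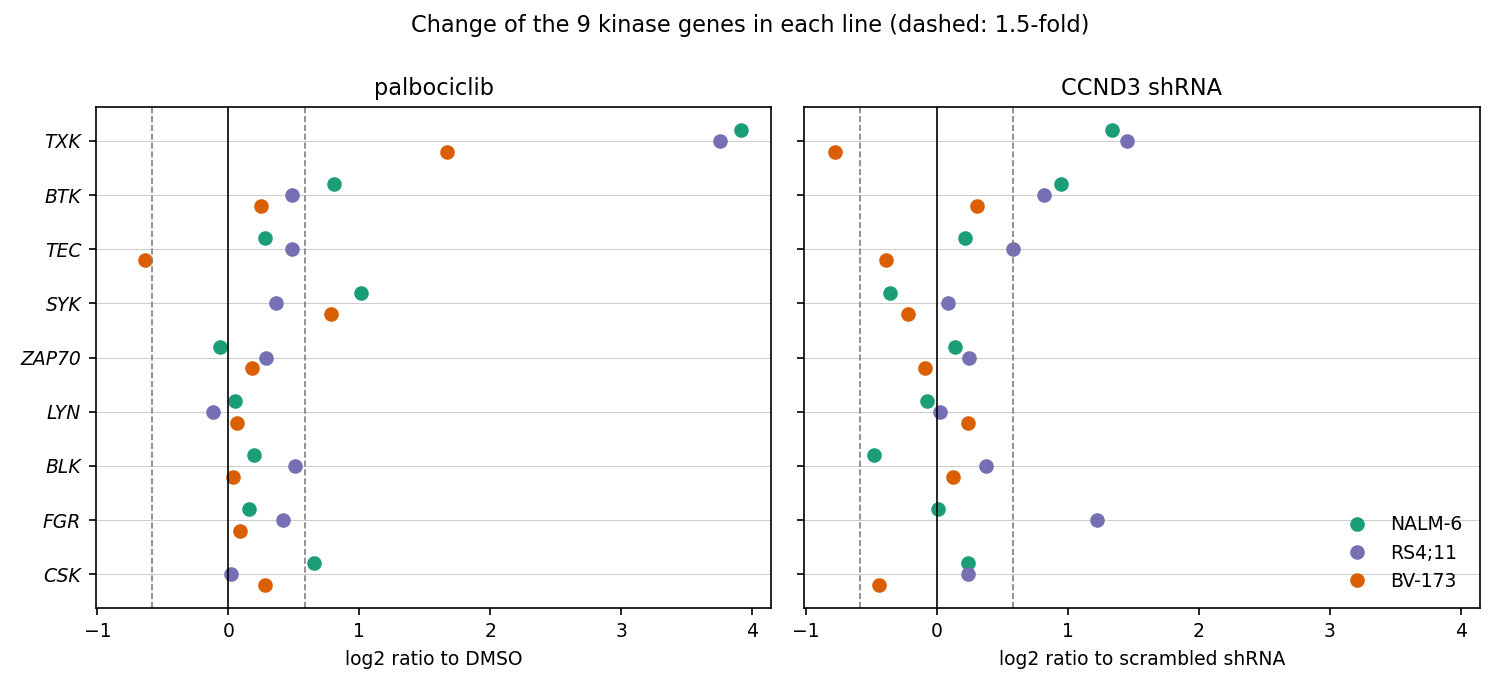
Log2 ratio of treated to control level for each of the 9 genes (palbociclib over DMSO on the left, *CCND3* shRNA over scrambled shRNA on the right), with 1 point per line and dashed lines at 1.5-fold. *TXK* stands at 1.67 to 3.91 with palbociclib, whereas *LYN*, *BLK* and *ZAP70* stay between the dashed lines in every comparison. *BTK* is to the right of 0 in all 6.

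Tested over the 3 lines with limma, none of the 8 genes passed an adjusted p of 0.05 in any comparison, *TXK* not being tested for palbociclib or the difference. For palbociclib, 2.39% of all genes passed as higher and 3.89% as lower. For knockdown and for the difference between treatments 0.0% did so, with 2900 and 2769 of 13307 genes at an unadjusted p under 0.05, and 953 and 606 genes called with trend and robust shrinkage. The median of the members' mean log2 ratios was 0.08 for knockdown (all genes 0.00). For palbociclib it was 0.28 (all genes 0.04), which includes the *TXK* value used in the selection, so nothing is read from it.

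The receptor and its signalling partners were counted from lists. Of 7 genes for receptor components and coreceptors, 2 passed as higher with palbociclib and none as lower, and none passed for knockdown. *CD72*, an inhibitory coreceptor and 1 of these, went with palbociclib from 1094 to 3363 in NALM-6, from 3049 to 6459 in RS4;11 and from 116 to 223 in BV-173 (mean log2 ratio 1.22 ± 0.36, SD, limma adjusted p 0.0433). Like *SYK*, *CD72* was lowest in BV-173.

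Of 15 adaptors and effectors, which include *BLNK* and *PLCG2*, none passed in either treatment, and the median log2 ratio was 0.26 for palbociclib and 0.15 for knockdown. Of 11 tested brakes and phosphatases out of 12, none passed, with medians of 0.08 and 0.12. Of 10 B-lineage markers, 1 passed as higher with palbociclib, and the median was -0.16. No tested marker of the T (1), NK (3) or myeloid (6) lists passed in either treatment.

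Among 10645 genes with a mean level of at least 50, those whose log2 scaled level was most like that of *TXK* over the 12 groups were *FRMD8* (Pearson's r = 0.945), *NXF1* (0.922), *PGAP3* (0.920), *TRABD* (0.917) and *TCF25* (0.916). The 12 points share lines and column totals, so r is a description. Of the other members, *BTK* had an r of 0.622 with *TXK*, and the remaining 6 had 0.151 to 0.384. *PGAP3*, which acts on GPI anchors, had log2 ratios of 1.16, 0.88 and 0.71 for palbociclib and 0.54, 0.45 and 0.05 for knockdown, in the order NALM-6, RS4;11, BV-173. These genes were picked for their likeness to *TXK* in the same groups, so nothing is read from a shared pattern.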

How the data were processed

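RNA-seq of 34 samples in 12 groups (3 B-ALL lines, *CCND3* or scrambled shRNA, palbociclib or DMSO) was used, grouped by the labelled line and treatment. Per the labels, the authors enriched mRNA with oligo dT and used SOAPnuke for read filtering, Bowtie2 for mapping (hg38), RSEM for gene levels and DESeq2 for each pair of groups. The deposited tables hold, for each comparison, 1 signal per group (a level made by the authors for that pair, whose exact scaling is not given in the sources used here) and the authors' fold changes and p-values, which were not used. All columns of levels were mapped to a group (0 left out).

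The log2 ratio of the 2 levels, with no pseudocount, was computed per line. limma 3.58.1 (R 4.3.3) tested the 3 ratios, 1 per line, over 13307 genes with Benjamini-Hochberg adjustment. Lines are thus the replicates, and p-values measure the spread between lines, since values per sample were not analysed here. Depth and precision per sample are unknown. Calls were made at an adjusted p under 0.05. In simulated data, 96% of genes shifted by 1 on the log2 scale were recovered for knockdown and 8% for palbociclib, and 100% and 94% of those shifted by 2. The simulated ratios were drawn from normal distributions with the spreads already shrunk by limma, which the real ratios need not follow. In the real data the shRNA target *CCND3*, with a mean log2 ratio of -2.00 for knockdown, had a limma adjusted p of 0.0742 and did not pass. The simulated rates are therefore not read as the power of these tests.

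Scaled levels (parts per 1000000 of the group total), divided by transcript length in kilobases, served to compare genes. Promoters and positions are RefSeq's (GRCh38.p14), and 9 of 9 genes matched by gene identifier. The members, the gene lists and the promoter words were chosen with earlier results of these data known. Named genes are the 9 members, *CCND3*, the other TEC, SRC and CSK family genes, called genes of the lists (at most 4 per list and treatment) and the 5 genes most correlated with *TXK*. Some genes of the lists are not reported here. *NKG7*, *CD247*, *PRF1*, *KLRD1*, *GNLY*, *NCAM1*, *BLNK* and *PLCG2* were named outside this rule, all but the last 2 after their values were seen. Alternatives were 1 or 10 added to levels, a minimum mean level of 10, centring on the median ratio, scaled levels, trend and robust shrinkage, leaving out each line, and a 2-fold limit.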

Additional observations from a re-analysis of the deposited data

Results flagged for a closer look

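*TXK* moved in opposite directions between lines with *CCND3* shRNA. Its log2 ratio to scrambled shRNA was 1.34 in NALM-6 and 1.45 in RS4;11 but -0.78 in BV-173. The difference between lines was not tested, because each line gives 1 level per group.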

How the results depend on the processing

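Of the values over the lines, 197 kept direction and side of the threshold, 14 changed sign, 2 came to pass and 3 moved, while of those in a single line 181 kept and 31 moved. With trend and robust shrinkage, the genes called were 953 for knockdown, 1936 for palbociclib and 606 for the difference (0, 836 and 0 otherwise), and 1 member was called for knockdown (*BTK*) and 1 for palbociclib (*SYK*). The palbociclib count was 1296 with a mean level of at least 10, 243 without RS4;11, and 0 without NALM-6 or without BV-173, where 2 ratios remain. Means that changed sign were small. For *TEC* they were -0.088 for knockdown without RS4;11, and for palbociclib -0.072 without NALM-6 and -0.18 without RS4;11. For *LYN* they were -0.023 for knockdown without BV-173, and for palbociclib -0.015 after centring, -0.023 without NALM-6 and -0.034 without BV-173. For *BLK* knockdown they were -0.029 on scaled levels, -0.18 without RS4;11 and -0.052 without BV-173, for *CSK* knockdown -0.023 on scaled levels, -0.10 without NALM-6 and -0.10 without RS4;11, and for the *ZAP70* difference 0.082 without BV-173. At 2-fold in place of 1.5-fold, genes past the limit were 2855, 2251 and 1442 for palbociclib in the 3 lines (NALM-6, RS4;11, BV-173) and 825, 1125 and 138 for knockdown. Members past it in the same order of lines were then 2, 1 and 1 for palbociclib and 1, 2 and 0 for knockdown, and 0 in BV-173 knockdown with 10 added. Scaled levels moved the median log2 ratio of all genes to 0.19 for palbociclib in NALM-6 and to -0.11 for knockdown in BV-173, and 69.6% and 20.2% of genes past 1.5-fold were then higher (58.9% and 41.0% otherwise). The causes were not tested. No paired analysis was possible because the tables hold 1 level per group, and leaving out single replicates was not run for the same reason.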
